A study of Mus musculus with 12 samples.

Results

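The genes described here are the numbered zinc finger protein genes of the mouse, those whose GENCODE M21 symbol is Zfp followed by a number and nothing else. Members were chosen by their summed raw counts, at least 500 over all 12 libraries. Of 374 numbered genes among 51912 counted, 122 (32.6%) passed, 226 had fewer counts and 26 had none. Member totals ran from 508 to 15304 counts, with a median of 880.5. Just outside the limit lay Zfp687 with 489, Zfp160 with 492 and Zfp27 with 494 counts, and just inside lay Zfp933 with 508, Zfp358 with 512 and Zfp946 with 522. A gene near the limit could pass through the group in which it was high, and Zfp933 and Zfp946, both called lower in dKO-E, stand there.

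RNA was taken from mouse cortex at postnatal day 0 and depleted of ribosomal RNA. Libraries were made by ClickSeq, which joins adapters to randomly ended cDNA by click chemistry, with molecular tags that mark single cDNA molecules. There were 4 libraries of control cortex, 4 of dKO-N, in which H3f3a and H3f3b were deleted with Neurod6-Cre, and 4 of dKO-E, in which they were deleted with Emx1-Cre. H3f3a and H3f3b encode the same histone, H3.3, the form of H3 that is put into chromatin outside DNA replication. Neurod6-Cre acts in newborn excitatory neurons, and Emx1-Cre acts earlier, in the progenitors of the dorsal forebrain. Interneurons, microglia and vessels lie outside both lineages and keep their H3.3 genes, so each library mixes deleted and intact cells. In such bulk RNA, fewer cells of a type and less RNA per cell cannot be told apart. Whether the 4 libraries of a group stem from different animals is not stated, so p-values describe library-to-library spread, part of which may be technical.

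Zinc finger proteins of the C2H2 type read DNA with a row of small folds held by a zinc ion, each contacting a few bases. Many of them also carry a KRAB box, which binds Trim28 (KAP1). Trim28 brings in the methyltransferase Setdb1 and HP1 proteins, which write and read the silencing mark H3K9me3, above all at transposable elements and imprinted loci. H3.3 is found at many of these silent sites, placed there by Atrx and Daxx, and KRAB zinc finger genes themselves lie in tandem clusters whose bodies carry H3K9me3 and H3.3. Zinc finger proteins without KRAB are a mixed group that includes activators, partners of chromatin complexes and regulators of neural development.

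Libraries held 722080 to 3502017 counts in genes, the 3 shallowest being dKO-N 1 to 3. At these depths 3 counts correspond to 0.857 to 4.15 CPM (counts scaled for library size), and the fewest counts of any member in any library were 7. For the targeted gene H3f3a, control 1 gave 17.7 CPM and control 3 gave 16.4 CPM, against 117 and 121 CPM for control 2 and 4, while the 8 knockout libraries ranged from 22.1 to 37.8 CPM. H3f3b stood at 121, 76.7, 143 and 84.2 CPM in control 1 to 4, at 111 to 146 CPM in dKO-N and at 167 to 180 CPM in dKO-E, above every other library. It rose in dKO-E (edgeR log2 fold change 0.69 with SE 0.138 and adjusted p = 0.000707), and dKO-N missed the threshold (adjusted p = 0.583). The libraries labelled control 1 and 3 thus go against their label for H3f3a and lie within the dKO-N range for H3f3b. Directions below are between labels, and the counts of changed members are also given without them. Among the cell type lists, excitatory neuron markers summed to 3397 to 3847 CPM in control, 2335 to 3157 in dKO-N and 1750 to 2129 in dKO-E. Radial glia markers summed to 1166 to 1307 CPM in control, 1473 to 2041 in dKO-N, highest in dKO-N 4, and 1382 to 1487 in dKO-E. In both sums control 1 and 3 lay with the other controls, outside the knockout ranges. They stood at 3847 and 3483 CPM for excitatory neurons and at 1307 and 1262 CPM for radial glia. The labels do not give the genotype of the controls, and why H3f3a was low in control 1 and 3 was not tested. Cortical interneuron markers overlapped between all groups, at 2066 to 2835 CPM. Meninges markers summed to 94.7 CPM in dKO-E 1 and to 36.9, 13.3 and 10.1 CPM in dKO-E 2 to 4. They lay at 11.7 to 17.6 CPM in control and 12.2 to 23.4 in dKO-N, and only 1 of these 7 genes had enough counts to be tested. The part of this in members that were high in dKO-E 1 was not tested.

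The members split into a KRAB class and a class without it, and the classes differ in where they lie. A KRAB pattern was found in the longest open reading frame of 48 of the 121 coding members (39.7%), against 60.7% of 244 numbered genes below 500 counts and 1.35% of all protein-coding genes. Below, without KRAB means without a match to this fixed pattern, which would miss a KRAB box of other letters. Zfp939, a transcribed pseudogene, is the only non-coding member. All but 1 coding member held at least 1 C2H2 finger, with a median of 11, and Zfp142 had the most, 36. The exception was Zfp330, chosen after its values were seen. A genomic cluster was defined as at least 3 numbered coding genes on a chromosome with no more than 500 kb between neighbours. There were 32 such clusters with 223 genes, and they held 48 of the 122 members. Of the clustered members 64.6% had a KRAB pattern, against 23.3% of those outside. Most cluster genes thus lay below the count limit in this tissue. The cluster of 19 genes on chromosome 13 (67038596 to 67827002, mm10) held no member, and the cluster of 18 genes on chromosome 4 (145510759 to 147848366) held only Zfp933. Chromosome 7 carried the most members, 21 of its 92 numbered genes.

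Promoters of the members were searched for short letters that transcription factors are known to bind on both strands. In the RefSeq tables (GRCm38.p6), 98 of the 122 members had an entry of 300 bases, 250 before and 50 after the start. The ETS letters CCGGAAGT stood in 22.7% of 44 KRAB members and 13.3% of all 98 members, against 4.0% of 27025 promoters. YY1 letters (AAGATGGC) stood in 9.18% of members against 2.88%, and SP1 letters (GGGCGG) in 54.1% against 35.9%. CRE letters (TGACGTCA) stood in 4.08% against 1.88%, NRF1 letters (GCGCATGC) in 6.12% against 2.80%, and CTCF letters (CCACNAGG) in 4.08% against 4.92%. The median count of CG pairs was 17 in members and 7 in all promoters. Members were chosen by their counts, while the 27025 promoters were not limited to expressed genes. These shares therefore do not show a trait particular to zinc finger genes. The 150 bases before the start are shown for 4 KRAB members that passed a test below, with the ETS letters or their reverse complement in capitals. The 4 were not all called in the same comparison, so their directions cannot be set against each other. Zfp60 (chr7:27731259-27731408, plus strand) and Zfp605 (chr5:110109942-110110091, plus strand) fell in dKO-E, Zfp945 (chr17:22867135-22867284, minus strand) rose in dKO-N, and Zfp655 (chr5:145231592-145231741, plus strand) was higher in dKO-E relative to dKO-N. Each is written 5′ to 3′ on its gene's strand.
Zfp60: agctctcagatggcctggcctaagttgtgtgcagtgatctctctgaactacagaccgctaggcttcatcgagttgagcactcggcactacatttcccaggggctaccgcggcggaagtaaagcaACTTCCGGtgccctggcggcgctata
Zfp605: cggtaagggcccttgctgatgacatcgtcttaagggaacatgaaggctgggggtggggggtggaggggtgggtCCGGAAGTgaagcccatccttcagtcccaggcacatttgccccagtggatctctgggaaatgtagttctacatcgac
Zfp945: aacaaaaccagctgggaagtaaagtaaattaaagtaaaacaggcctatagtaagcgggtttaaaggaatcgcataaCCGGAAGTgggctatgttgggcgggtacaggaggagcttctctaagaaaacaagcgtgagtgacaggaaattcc
Zfp655: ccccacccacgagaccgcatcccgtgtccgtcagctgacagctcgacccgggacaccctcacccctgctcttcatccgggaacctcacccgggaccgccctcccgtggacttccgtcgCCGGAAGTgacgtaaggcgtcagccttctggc
The capitals begin 26 bases before the start in Zfp60, 77 in Zfp605, 74 in Zfp945 and 32 in Zfp655. A match describes the letters and not a bound site.

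Expression levels spanned a wide range and were led by members without KRAB. Zfp462, a long protein with 33 fingers that works with the H3K9 methyltransferases Ehmt1 and Ehmt2, was the most abundant, at 662 CPM averaged over the 12 libraries and 61.9 CPM per kb of exon. Zfp57, a KRAB protein that protects imprints, came next per kb of exon, at 42.5 CPM per kb. It was followed by Zfp608 at 41.2, Zfp532 at 37.5, Zfp292 at 31.3, Zfp704 at 30.9 and Zfp207 at 30.8 CPM per kb. Zfp532 belongs to a group of zinc finger partners of Zmynd8, and Zfp207 is a microtubule-binding protein of the spindle. Zfp148 (29.4), Zfp609 (27.8) and Zfp697 (23.2) completed the first 10 per kb. Reads of Zfp697 rest on a gene model of 371 kb with 13 antisense genes inside. The median member stood at 6.88 CPM per kb, at 6.19 for KRAB members and 8.41 for the others, and all genes tested had a median of 6.41. Zfp704 passed no test, at 478 to 495 CPM in control, 404 to 473 in dKO-N and 468 to 491 in dKO-E.

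After deletion in newborn neurons, few members changed. In dKO-N against control, 7 of 122 members passed (5.74%), against 11.3% of 11076 genes tested. Of these, 5 were higher, with 5.04% of all genes higher, and 2 were lower, with 6.29% of all genes lower. The risers were Zfp423, Zfp608 and Zfp516, which did not match the KRAB pattern, and the KRAB members Zfp945 and Zfp975. Zfp318 and Zfp398 fell. The median log2 fold change was 0.06 over the members and 0.01 over all genes. The 115 members that did not pass ranged from -0.38 to 0.99, with a median SE of 0.16. Without the libraries labelled control 1 and 3, 3 members passed, Zfp516, Zfp608 and Zfp975, and all 7 kept their sign. Without dKO-N 4, the deepest library, 4 passed, 3 of them among the 7.

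After deletion from progenitors onward, more members changed in the main fit, and most of these were lower. In dKO-E against control 19 of 122 members passed (15.6%), against 20.2% of all genes. There were 6 risers, with 10.1% of all genes higher, and 13 that fell, with 10.1% of all genes lower. None of the 6 risers, Zfp423, Zfp608, Zfp516, Zfp536, Zfp618 and Zfp654, had a KRAB pattern and none lay in a cluster. Of the 13 that fell, 6 had KRAB (Zfp81, Zfp605, Zfp60, Zfp933, Zfp266 and Zfp946) and 7 lay in clusters. The others were Zfp40, Zfp46, Zfp651, Zfp318, Zfp638, Zfp260 and Zfp341. With library totals in place of TMM scaling (a scaling that lines up the bulk of genes), 12 members were higher and 5 lower. That scaling moves the median of all genes to 0.14 in dKO-E and the members' median from -0.04 to 0.09. The members' median lay below that of all genes under both, but such a change shifts all genes nearly alike and could not alter that. Without control 1 and 3, 5 members passed, Zfp341, Zfp423, Zfp46, Zfp608 and Zfp618, and all 19 kept their sign. The 4 Y-linked genes used to mark sex passed 100 counts in sum only in dKO-E 3 and 4. With sex as a covariate 6 of the 19 still passed, Zfp423, Zfp46, Zfp516, Zfp536, Zfp608 and Zfp81.

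Between the knockouts the share of members called in the main fit was above that of all genes, and 12 of the 14 were lower in dKO-E. In dKO-E against dKO-N 14 of 122 members passed (11.5%), against 6.84% of all genes. Zfp423 and Zfp655 were higher, with 3.11% of all genes higher, and 12 were lower, with 3.73% of all genes lower. The 12 were Zfp975, Zfp933, Zfp672, Zfp60, Zfp558, Zfp2, Zfp638, Zfp46, Zfp148 and Zfp266, and, outside the rule for named genes, Zfp334 and Zfp68. In all, 81 of 122 members had a negative fold change in this comparison, with a median of -0.13 against -0.00 over all genes. Much of this rests on dKO-N 4: without it 5 members passed and the median was -0.05, and of the 14 only Zfp423, Zfp46, Zfp638 and Zfp975 still passed. With sex as a covariate 2 of the 14 still passed, Zfp638 and Zfp975. With every library thinned to 722080 counts none passed with edgeR, and 15 had an unadjusted p under 0.05. At full depth these were 34, and DESeq2 called 9. Library totals gave 4 higher and 5 lower.

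Of the risers in dKO-E, Zfp423 and Zfp608 had the lowest adjusted p-values. Zfp423 encodes a protein of 27 fingers that works with Ebf and Smad factors and is needed for midline and cerebellar development. It was measured at 73.5, 76.1, 69.1 and 82.7 CPM in control 1 to 4. The dKO-N libraries held 103, 104, 114 and 105 CPM, and the dKO-E libraries 144, 124, 161 and 148. The 3 groups did not overlap, with control lowest and dKO-E highest. The log2 fold change of Zfp423 was 0.50 in dKO-N (SE 0.112, edgeR adjusted p = 0.00174) and 0.94 in dKO-E (SE 0.103, adjusted p = 5.83e-09). The difference between the knockouts was 0.44 (SE 0.107, adjusted p = 0.00956), a call lost without dKO-E 3 (adjusted p = 0.0553), with sex as a covariate (adjusted p = 0.187) and after thinning. Its rise in dKO-E passed under every alternative tried, and its rise in dKO-N was lost without control 1 and 3 (adjusted p = 0.0816).

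Zfp608 is a paralogue of Zfp609, a partner of the Integrator complex and the cohesin loader in cortical progenitors. Zfp608 lay at 271, 239, 248 and 220 CPM in control. The dKO-N libraries stood at 399, 348, 328 and 430 CPM and the dKO-E libraries at 413, 441, 467 and 409, so that every knockout library was above every control. Its log2 fold change was 0.63 in dKO-N (SE 0.0965, edgeR adjusted p = 7.48e-06) and 0.82 in dKO-E (SE 0.094, adjusted p = 1.29e-08). The knockouts overlapped, and their difference did not pass (0.19, SE 0.0948, adjusted p = 0.223). Zfp608 was the only member called against control in both knockouts under all 21 alternatives. Zfp609 itself was at 223 to 237 CPM in control, 204 to 292 in dKO-N and 201 to 253 in dKO-E, and passed no test.

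Zfp516, a factor of brown fat that also works with corepressors, stood at 30.4, 28.8, 30.7 and 22.7 CPM in control. The dKO-N libraries held 47.6, 45.7, 31.7 and 77.8 CPM and the dKO-E libraries 53.6, 46.6, 39.5 and 38.0. All 8 knockout libraries lay above the controls, dKO-N 3 by the least and dKO-N 4 by the most. The log2 fold change was 0.99 in dKO-N (SE 0.192, edgeR adjusted p = 0.000526) and 0.64 in dKO-E (SE 0.187, adjusted p = 0.0151). Without dKO-N 4, the log2 fold change in dKO-N was 0.57 (adjusted p = 0.0512).

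Zfp536, which restrains neuronal differentiation by retinoic acid, was at 154, 143, 152 and 133 CPM in control and at 287, 186, 182 and 181 CPM in dKO-E. The groups did not overlap, and dKO-E 1, the library highest in meninges markers, stood far above the other libraries of its group. The log2 fold change was 0.51 (SE 0.147, edgeR adjusted p = 0.0197). In dKO-N it lay at 155, 170, 183 and 244 CPM and did not pass (log2 fold change 0.41, adjusted p = 0.104). Zfp618, which binds Uhrf2, was at 95.7, 79.9, 96.3 and 87.3 CPM in control and at 112, 113, 114 and 122 CPM in dKO-E. That is a log2 fold change of 0.36 (SE 0.111, adjusted p = 0.0192), and in dKO-N the difference was -0.01. Zfp654 stood at 73.1 to 93.5 CPM in control and at 79.7, 108, 107 and 109 CPM in dKO-E, where dKO-E 1 overlapped control (log2 fold change 0.35, SE 0.117, adjusted p = 0.0277).

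Zfp521, the closest relative of Zfp423 among the members, is active in early neural differentiation. In control it was at 41.7 to 48.0 CPM. In dKO-N it was at 66.7, 57.8, 73.1 and 129 CPM, and in dKO-E at 120, 63.2, 48.1 and 54.3. All 8 knockout libraries were above the controls, but 1 library in each knockout was far above the rest. The test was not passed in dKO-N (log2 fold change 0.99, SE 0.345, edgeR adjusted p = 0.112) or in dKO-E (0.63, SE 0.338, adjusted p = 0.241).

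Of 13 members on a list with a described role in neural development, 1 rose and none fell in dKO-N, and 3 rose and none fell in dKO-E. The 3 were Zfp423, Zfp536 and Zfp618. These counts are 7.69% and 23.1% of the list, against 11.3% and 20.2% of all genes. Between the knockouts Zfp423 was higher and Zfp148 was lower in dKO-E. Their median log2 fold change was 0.20 in dKO-N and 0.08 in dKO-E, against 0.01 over all genes in each. Zfp335, a subunit of an H3K4 methyltransferase complex needed in neural progenitors, lay at 27.6 to 43.4 CPM in control, 30.9 to 48.2 in dKO-N and 23.4 to 40.9 in dKO-E. It shares its place with the antisense gene Pcif1, so its reads are uncertain.

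Of 13 members on a list of partners of chromatin complexes, none was called in dKO-N by edgeR or DESeq2. In that comparison edgeR called 11.3% of all genes, and 4 of the 13 had an unadjusted p under 0.05. In dKO-E Zfp536 rose and Zfp638 fell, 15.4% of the list against 20.2% of all genes. Zfp638, which guides the HUSH complex and Setdb1 to silence unintegrated retroviral DNA, was at 399, 339, 348 and 315 CPM in control. The dKO-N libraries held 356, 379, 411 and 465 CPM and the dKO-E libraries 289, 291, 258 and 285. Every dKO-E library was below every other library. The log2 fold change was -0.32 against control (SE 0.0941, edgeR adjusted p = 0.0121) and -0.53 against dKO-N (SE 0.0963, adjusted p = 0.000599). Zfp462 was at 567 to 684 CPM in control, 595 to 846 in dKO-N and 551 to 673 in dKO-E, with no call. The other members of this list, Zfp131, Zfp451, Zfp512, Zfp532, Zfp592, Zfp609, Zfp746, Zfp827, Zfp91 and Zfp335, passed in no comparison.

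Among the members without a match to the KRAB pattern that fell, Zfp46 had the lowest adjusted p. It was at 74.9, 73.0, 72.1 and 91.4 CPM in control, at 92.5, 75.5, 79.9 and 57.4 in dKO-N, and at 46.4, 56.3, 45.7 and 51.5 in dKO-E. All dKO-E libraries lay below all others. The log2 fold change was -0.63 against control (SE 0.13, edgeR adjusted p = 0.000377) and -0.53 against dKO-N (SE 0.142, adjusted p = 0.018). Zfp318, known for its part in IgD expression of B cells, was at 77.3 to 89.7 CPM in control, 57.8 to 74.4 in dKO-N and 61.2 to 74.4 in dKO-E. It fell in dKO-N by 0.41 (adjusted p = 0.0196) and in dKO-E by 0.31 (adjusted p = 0.0397) on the log2 scale, without overlap with control. Zfp341, a regulator of Stat3 expression, fell by 0.51 in dKO-E (adjusted p = 0.0423), and Zfp651 by 0.48 (adjusted p = 0.0448). Zfp672 was lower in dKO-E relative to dKO-N by a log2 fold change of -0.79 (SE 0.197, adjusted p = 0.0111), with overlap at dKO-N 2, and without dKO-N 4 its adjusted p was 0.257. Zfp148, a factor that binds GC-rich promoters, was at 294 to 401 CPM in dKO-N and 258 to 282 in dKO-E (log2 fold change -0.32, adjusted p = 0.0427). That call was lost in 8 of 12 leave-outs, and without dKO-N 4 the log2 fold change was -0.22 (adjusted p = 0.239).

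The KRAB members are described as a class and then singly. In dKO-N 2 of 48 rose and 1 fell, in dKO-E none rose and 6 fell, and between the knockouts 1 was higher and 7 were lower in dKO-E. The shares called were 6.25%, 12.5% and 16.7%, against 11.3%, 20.2% and 6.84% of all genes. The 12.5% that fell in dKO-E lie near the 10.1% of all genes that fell there. For the count of 0 in dKO-E, edgeR gave 13 KRAB members at an unadjusted p under 0.05 in either direction, and DESeq2 called 4. The 73 members without KRAB had 3 up and 1 down in dKO-N, 6 up and 7 down in dKO-E, and 1 up and 5 down between the knockouts. Their shares called were 5.48%, 17.8% and 8.22%. Median log2 fold changes of KRAB members were 0.00, -0.09 and -0.18 in the 3 comparisons, and those of the others 0.07, -0.01 and -0.09. By library totals the KRAB median in dKO-E against control was 0.03 and that of the others 0.11, so the sign of the KRAB median depends on the scaling. Such a change shifts all genes nearly alike, so it cannot test the place of the class relative to all genes. The difference between the classes was not tested.

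Summed over the class, KRAB members made up 2145 to 2195 CPM in control and 1920 to 2011 CPM in dKO-E, with no overlap. The dKO-N libraries held 2094, 2134, 2291 and 2342 CPM, on both sides of control. By library totals the sums were 2015 to 2085 CPM in control, 2131 to 2227 in dKO-N and 1979 to 2072 in dKO-E, so that dKO-E then overlapped control and still lay below dKO-N. Members without KRAB summed to 6649 to 6882 CPM in control, 6919 to 8084 in dKO-N and 6952 to 7068 in dKO-E. In that class both knockouts lay above control, and the highest library was dKO-N 4.

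**Figure D1:**
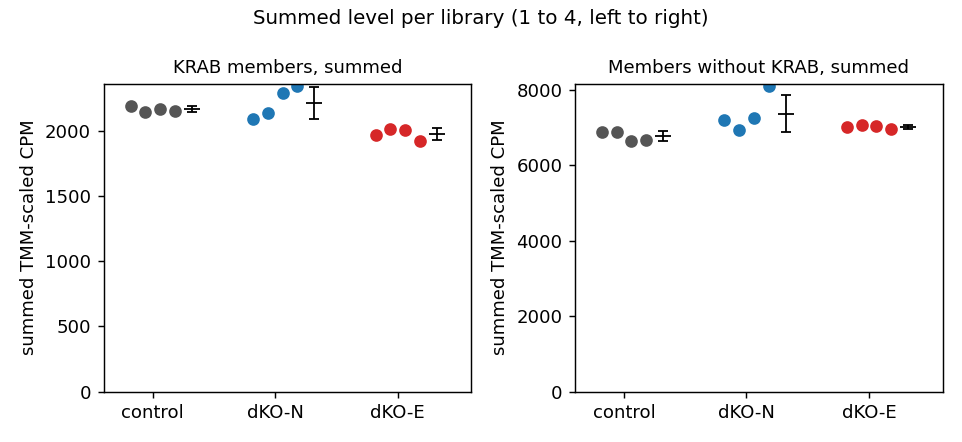
Summed TMM-scaled CPM of 48 members with a KRAB pattern (left) and 73 without it (right), 1 point per library in the order 1 to 4, with mean and SD (n = 4), on linear axes from 0. KRAB sums in dKO-E, 1920 to 2011, sit below every other library, while the sums of the other members in dKO-E, 6952 to 7068, sit above every control.

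Zfp60, with 19 fingers, lay at 52.3, 43.1, 44.5 and 41.8 CPM in control. Its 4 dKO-N libraries were spread widely, at 27.2, 39.2, 66.2 and 62.2 CPM, and dKO-E held 30.7, 29.6, 35.2 and 22.4. All of dKO-E lay below control and overlapped dKO-N only at dKO-N 1. For Zfp60 the log2 fold change was -0.62 against control (SE 0.178, edgeR adjusted p = 0.0117) and -0.78 against dKO-N (SE 0.188, adjusted p = 0.0102). Zfp605 was at 30.7, 32.5, 35.4 and 28.4 CPM in control, at 27.2, 20.5, 17.9 and 27.9 in dKO-N, and at 19.6, 24.3, 21.9 and 17.3 in dKO-E. All 8 knockout libraries were below the controls, and the fall passed in dKO-E (-0.59, SE 0.169, adjusted p = 0.0102) but not in dKO-N (-0.38, adjusted p = 0.202).

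Zfp975, a KRAB gene of 14 fingers on chromosome 7 (42660105 to 42692742), had the largest difference between the knockouts. It was at 28.6, 20.8, 20.7 and 21.2 CPM in control. In dKO-N it was at 35.4, 34.5, 30.3 and 44.2 CPM, above every control, and in dKO-E at 20.2, 14.2, 16.4 and 18.5, below every control. It rose in dKO-N (log2 fold change 0.71, SE 0.179, edgeR adjusted p = 0.00564), and in dKO-E the difference was -0.44 (adjusted p = 0.0977). Between the knockouts the log2 fold change was -1.15 (SE 0.189, adjusted p = 0.00023), the only member past 2-fold in any comparison. That call held whichever library was left out. Zfp655 went the other way, at 24.5, 27.0, 31.7 and 27.9 CPM in dKO-N and 37.9, 49.8, 37.5 and 45.3 in dKO-E, with control between at 30.0 to 41.9. It was higher in dKO-E relative to dKO-N by a log2 fold change of 0.62 (SE 0.168, adjusted p = 0.0198), and passed against control in neither knockout.

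**Figure D2:**
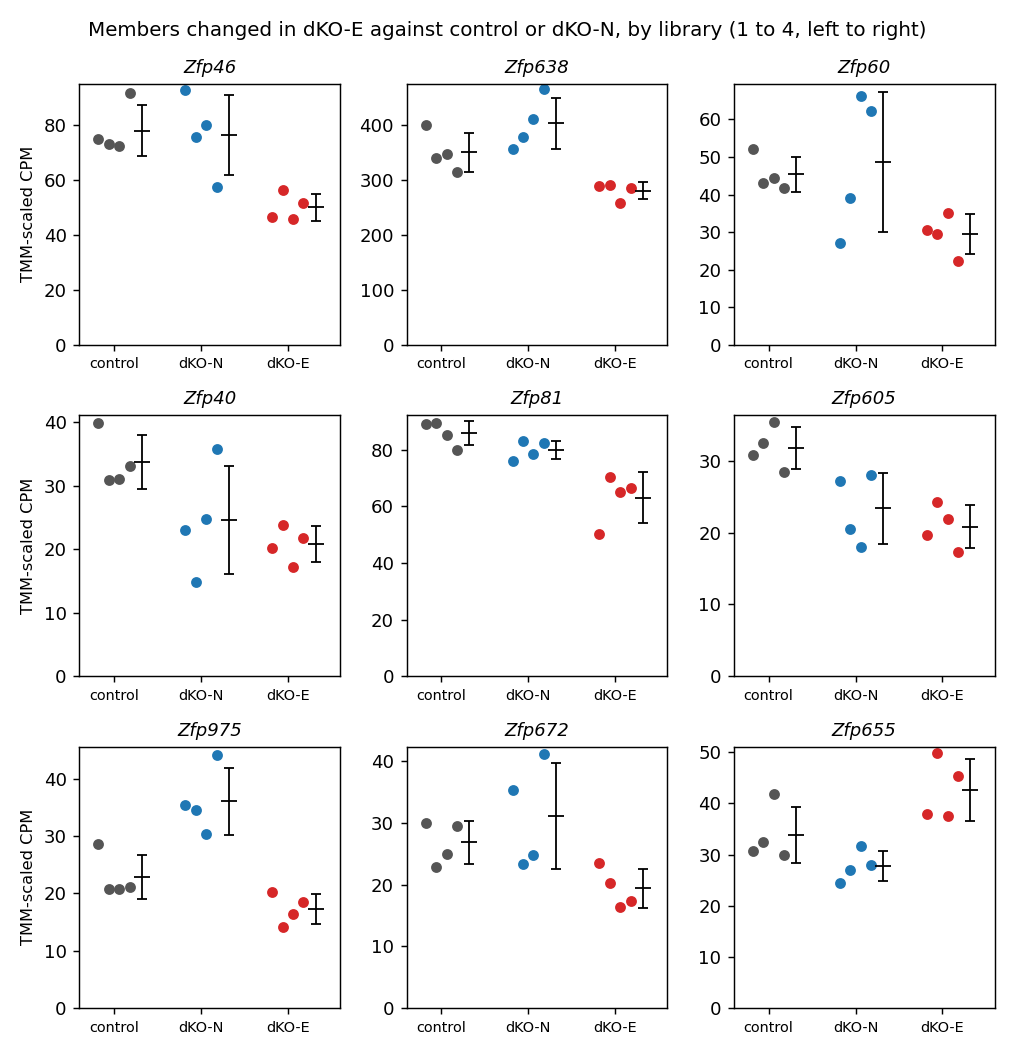
TMM-scaled CPM (linear axes from 0) of 9 members changed in dKO-E against control or dKO-N, 1 point per library in the order 1 to 4, with mean and SD (n = 4). Zfp46, Zfp638 and Zfp81 are lowest in all 4 dKO-E libraries, Zfp975 is high in dKO-N and low in dKO-E, and Zfp655 is highest in dKO-E on average.

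Zfp558 (34.5 to 49.0 CPM in dKO-N, 25.9 to 32.8 in dKO-E) and Zfp933 (14.9 to 34.5 and 9.80 to 19.4 CPM) were also lower in dKO-E relative to dKO-N. Zfp933 passed against control as well (log2 fold change -0.69, SE 0.239, edgeR adjusted p = 0.0394), with overlap. Zfp2, without KRAB, was at 32.6 to 47.6 CPM in dKO-N and at 23.1 to 31.9 in dKO-E, without overlap (log2 fold change -0.55, adjusted p = 0.0365). Without dKO-N 4 none of the 3 differences between the knockouts passed, with adjusted p = 0.528 for Zfp933 (log2 fold change -0.41), 0.273 for Zfp558 and 0.166 for Zfp2.

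Of 3 members with a described role at retroelements or imprints, Zfp57, Zfp445 and Zfp961, none passed in any comparison with edgeR. At an unadjusted p under 0.05 there were 0, 2 and 2 of them in the 3 comparisons, and DESeq2 called 1 in dKO-E. Zfp57 and Zfp445 bind imprinted control regions and keep them methylated. Zfp57 lay at 167, 175, 163 and 172 CPM in control, at 171, 159, 196 and 159 in dKO-N, and at 146, 142, 146 and 136 in dKO-E. All dKO-E libraries were below all others, and the difference from control missed the threshold (log2 fold change -0.24, SE 0.0915, edgeR adjusted p = 0.0556). Zfp445 was at 119 to 147 CPM in control, 99.3 to 154 in dKO-N and 105 to 130 in dKO-E (log2 fold change -0.25 in dKO-E, adjusted p = 0.106). Of 25 imprinted genes tested, 1 rose in dKO-N and 5 rose in dKO-E, with none lower. Those shares are 4.0% and 20%, against 11.3% and 20.2% of all genes. The risers were Plagl1 in both, and H19, Meg3, Snrpn and Rasgrf1 in dKO-E.

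**Figure D3:**
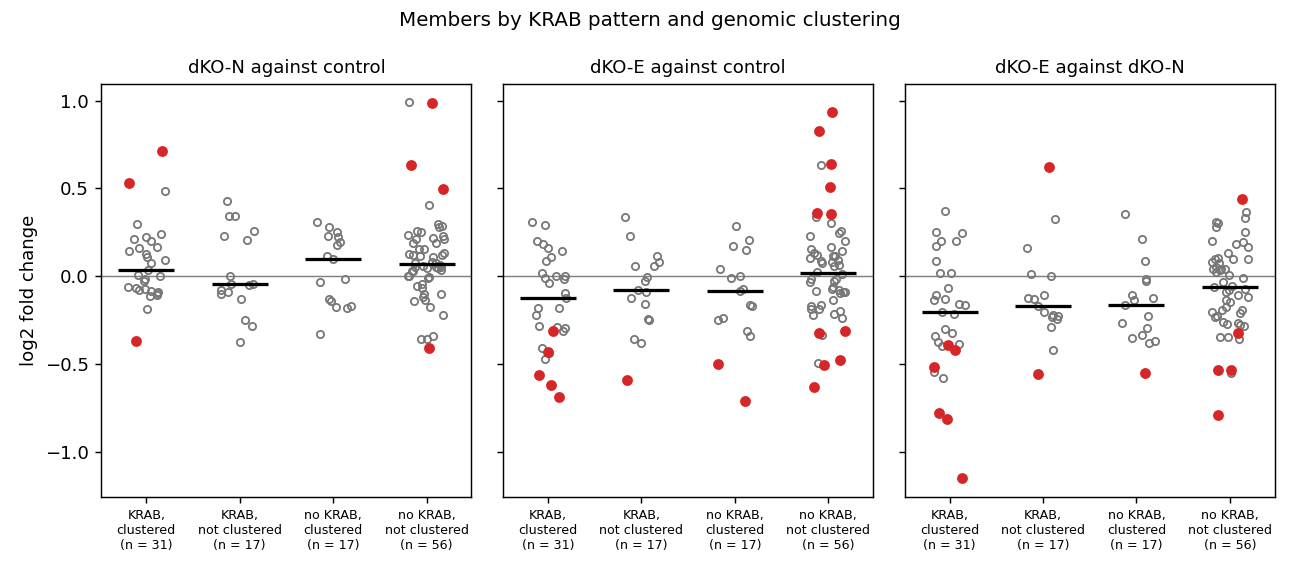
Log2 fold change of every coding member in the 3 comparisons, split by KRAB pattern and by place in a genomic cluster. Filled points passed edgeR's test at an adjusted p of 0.05, open points did not, and bars are medians. In dKO-E against control the filled points above 0 all stand in the class without KRAB and outside clusters.

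Members in clusters were then compared with those outside. In dKO-E against control none of 48 clustered members rose and 7 fell, against 6 up and 6 down of 74 outside. Thus 14.6% of clustered members were called, against 16.2% of those outside and 20.2% of all genes, with 10.1% of all genes lower. For the count of 0, 12 clustered members had an unadjusted p under 0.05 in either direction, and DESeq2 called 4. Between the knockouts none of the clustered members was higher and 7 were lower in dKO-E, against 2 higher and 5 lower outside. Those are 14.6% and 9.46% called, against 6.84% of all genes, with 14 clustered members at an unadjusted p under 0.05 and 4 called by DESeq2. In dKO-N 2 clustered members rose and 1 fell. Median log2 fold changes of clustered members were 0.06, -0.11 and -0.18 in the 3 comparisons, and of those outside 0.06, -0.02 and -0.10. Clustering and the KRAB class overlap, and 31 of the 48 clustered members had KRAB.

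There were 6 clusters with at least 3 members. The largest, cluster 29 on chromosome 17 (21008903 to 23599487, mm10), spans 23 genes, 21 of them with KRAB, and holds Zfp948, Zfp943, Zfp946, Zfp945 and Zfp40 in that order. Summed over all 23 genes it was at 305 to 333 CPM in control, 287 to 374 in dKO-N and 246 to 278 in dKO-E, lowest in every dKO-E library. Cluster sums are TMM-scaled and were not compared by library totals, under which the KRAB class sum in dKO-E overlapped control. The separation of this sum may therefore depend on the scaling. How many clusters had such separate sums was not counted. All 5 members had negative fold changes in dKO-E against both other groups, and 2 of them fell against control. Zfp40 was at 39.9, 30.9, 31.1 and 33.1 CPM in control and at 20.2, 23.9, 17.2 and 21.8 in dKO-E, without overlap (log2 fold change -0.71, SE 0.186, edgeR adjusted p = 0.00518). In dKO-N it was spread from 14.9 to 35.7 CPM. Zfp946 was at 22.2 to 29.3 CPM in control and 14.5 to 20.7 in dKO-E (log2 fold change -0.56, adjusted p = 0.044). Zfp945, in the same cluster, was at 22.0 to 28.9 CPM in control and rose in dKO-N, to a range of 29.9 to 40.0 CPM (edgeR log2 fold change 0.53, SE 0.172, adjusted p = 0.0369), while dKO-E differed from control by -0.01. That rise was lost in 5 of 12 leave-outs of a single library.

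Cluster 30, on the same chromosome (32765496 to 33631779), holds 6 KRAB members among 11 genes and showed signs in both directions in dKO-E. Zfp81 was at 89.0, 89.5, 85.1 and 80.1 CPM in control, at 76.2, 83.0, 78.6 and 82.3 in dKO-N, and at 50.3, 70.5, 65.3 and 66.6 in dKO-E. It lay below all other libraries in dKO-E and fell against control (log2 fold change -0.43, SE 0.111, edgeR adjusted p = 0.00435). Its 5 neighbours passed in no comparison. Zfp799 had -0.47 in dKO-E (adjusted p = 0.0676), while Zfp871 had 0.20 (adjusted p = 0.283) and Zfp763 had 0.31 (adjusted p = 0.317). The sum of the 11 genes overlapped between all groups, at 280 to 322 CPM in control, 277 to 328 in dKO-N and 272 to 304 in dKO-E.

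Cluster 20, on chromosome 9 (20345136 to 20605409), is dense in members, with 4 of its 5 genes, and all 5 have KRAB. Its sum was 296 to 321 CPM in control, 280 to 343 in dKO-N and 229 to 270 in dKO-E, lowest in every dKO-E library. Zfp266, which makes up much of that sum, was at 134, 141, 144 and 141 CPM in control, at 117, 171, 117 and 167 in dKO-N, and at 112, 122, 107 and 109 in dKO-E. It fell against control by 0.31 (SE 0.107, edgeR adjusted p = 0.0329) and was lower than in dKO-N by a log2 fold change of -0.39 (SE 0.112, adjusted p = 0.029). Zfp426 had -0.41 in dKO-E (adjusted p = 0.0678), Zfp846 -0.22 (adjusted p = 0.249) and Zfp26 -0.00 (adjusted p = 0.997).

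Cluster 8, on chromosome 6 (47819266 to 48623227), had the opposite signs. Its 4 members, Zfp398, Zfp282, Zfp777 and Zfp746, had negative fold changes in dKO-N and positive ones in dKO-E against dKO-N, from 0.25 to 0.37. Only Zfp398 passed a test. It was at 69.2, 75.1, 74.7 and 81.6 CPM in control and at 53.1, 60.6, 64.8 and 55.9 in dKO-N, without overlap, a fall of 0.37 on the log2 scale (SE 0.12, edgeR adjusted p = 0.0401). In dKO-E it was at 68.8 to 78.4 CPM, and its difference from dKO-N missed the threshold (0.37, adjusted p = 0.0551). The call in dKO-N was lost in 7 of 12 leave-outs. Zfp746, known as Paris, a repressor of the Ppargc1a gene, was at 30.2 to 46.5 CPM in control, 30.3 to 46.6 in dKO-N and 35.3 to 53.9 in dKO-E.

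The remaining clusters with 3 members lie on chromosome 7. In cluster 15 (29768552 to 30169750, 15 genes) Zfp260 fell in dKO-E, from 40.6, 36.7, 34.6 and 37.2 CPM in control to 23.5, 29.6, 25.4 and 26.3 (log2 fold change -0.50, SE 0.156, edgeR adjusted p = 0.0193). Its neighbours Zfp146 and Zfp74 passed in no comparison, at -0.25 and 0.11 in dKO-E. In cluster 17 (127233061 to 127885996, 10 genes) Zfp629, Zfp646 and Zfp668 passed in no comparison with edgeR, had no unadjusted p under 0.05 and were called by DESeq2 in none. Zfp646 and Zfp668 overlap on opposite strands, with 911 and 605 counts in all, so reads of each may belong to the other. In cluster 25 on chromosome 13, with 19 genes and no member, the sum was 84.7 to 105 CPM in control, 69.4 to 111 in dKO-N and 61.0 to 69.9 in dKO-E.

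**Figure D4:**
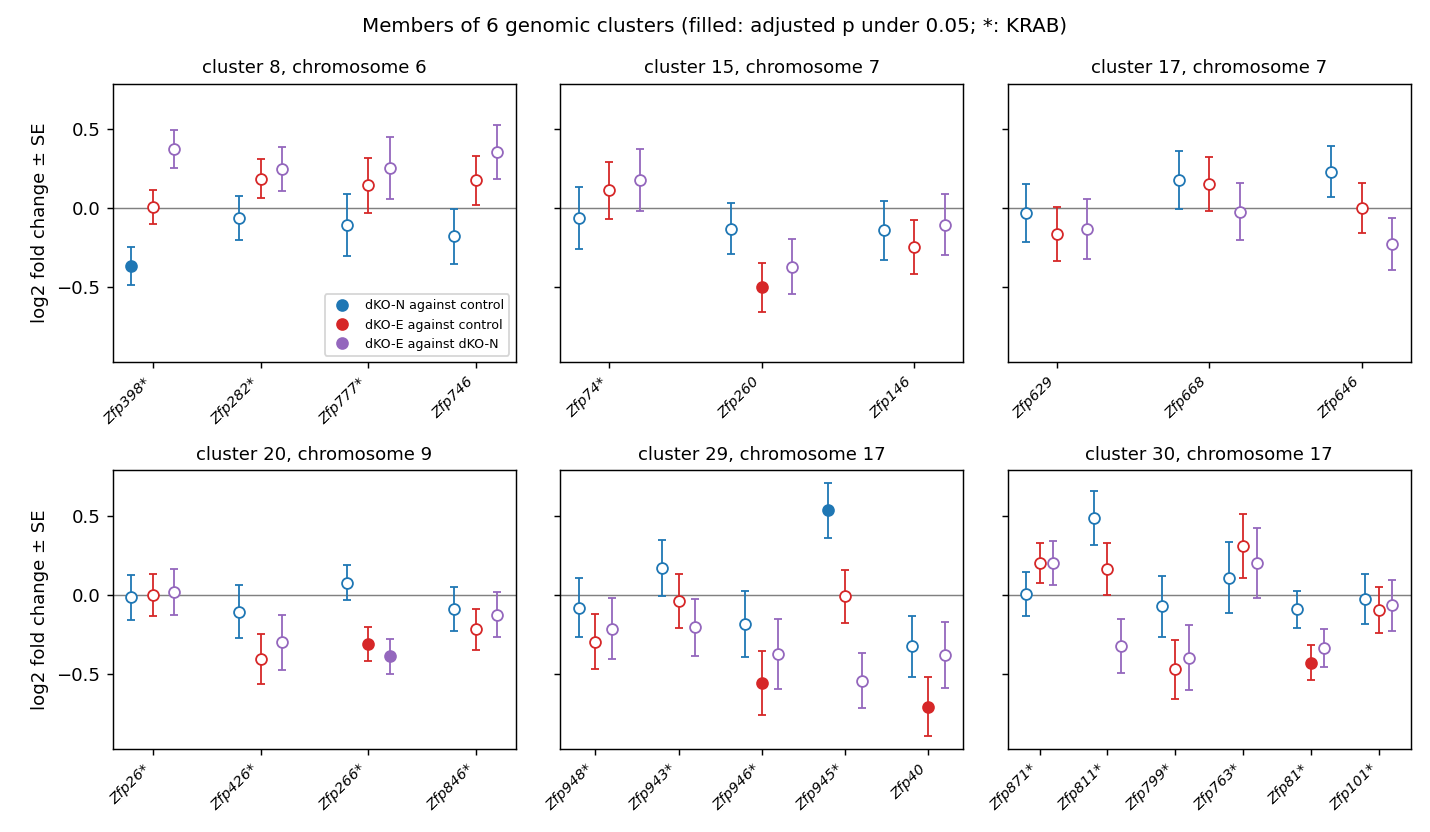
Log2 fold change with SE of the members in the 6 clusters with 3 or more members, in chromosomal order, for the 3 comparisons. Filled points passed edgeR's test at an adjusted p of 0.05 and an asterisk marks a KRAB pattern. Members of cluster 29 lie at or below 0 in dKO-E, while those of cluster 8 lie at or above it.

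The members that rose in dKO-E were long genes, while those that fell had about the median length of all members. The 6 risers in dKO-E had a median gene length of 139 kb and the 13 that fell 25.4 kb, against 25.7 kb over all members and 32.2 kb over all genes tested. Across the 73 members without KRAB, gene length and log2 fold change in dKO-E had a Spearman rho of 0.35, and across the 48 KRAB members -0.09. These describe genes measured in the same libraries and are not a test. The same correlation was not computed over all genes, so it does not show a trait particular to the members. The KRAB members span a narrower range, 9.47 to 109 kb, than the others, 4.07 to 462 kb.

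Genes of the silencing pathway that KRAB proteins call on were read from a list of 21 tested genes. Of these 1 rose and 2 fell in dKO-N, 5 rose and 2 fell in dKO-E, and 1 was lower in dKO-E relative to dKO-N. The shares called were 14.3%, 33.3% and 4.76%, against 11.3%, 20.2% and 6.84% of all genes, and DESeq2 called 2, 4 and 0. Setdb1, which writes H3K9me3, fell in dKO-N from 82.4 ± 4.22 to 60.8 ± 10.2 CPM (SD, n = 4; log2 fold change -0.40, edgeR adjusted p = 0.0316) and was at 73.7 ± 8.25 in dKO-E (adjusted p = 0.389). Its partner Atf7ip rose in both, by log2 fold changes of 0.39 (adjusted p = 0.00191) and 0.46 (adjusted p = 8.43e-05). Chd3, a remodeller recruited by Trim28, fell in both, by 0.49 and 0.50 (adjusted p = 0.000106 and 3.16e-05). Trim28 passed in neither, with control at 101 ± 8.49 CPM, dKO-N at 107 ± 12.1 and dKO-E at 93.4 ± 3.10. In dKO-E Cbx3, the HP1 gamma gene, rose by 0.40 (adjusted p = 0.0188), and Smarcad1, a remodeller that binds Trim28, fell by 0.40 (adjusted p = 0.0104).

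Of 15 H3K9 methyltransferase and reader genes, 1 rose and 1 fell in dKO-N, 2 rose in dKO-E, and Ehmt1 was lower in dKO-E relative to dKO-N (log2 fold change -0.32, edgeR adjusted p = 0.0455). Those are 13.3%, 13.3% and 6.67% of the list, against 11.3%, 20.2% and 6.84% of all genes. DESeq2 called 0, 1 and 0 of them, so that neither call in dKO-N nor that of Ehmt1 was made by both tools. Pphln1, a subunit of the HUSH complex, rose by 0.47 in each knockout (adjusted p = 0.022 and 0.00893). Of 9 tested H3.3 chaperone genes, Cabin1 fell in dKO-N by 0.31 (adjusted p = 0.0479), 11.1% of the list against 11.3% of all genes, and DESeq2 did not call it. In dKO-E Dek rose by 0.61 (adjusted p = 0.000401) and Asf1a by 0.62 (adjusted p = 0.0188). Those are 22.2% of the list, against 20.2% of all genes, and DESeq2 called 1 of the 9. Between the knockouts 1 chaperone gene was higher in dKO-E, 11.1% of the list against 6.84% of all genes.

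Calls in both knockouts against control were shared by 4 members, Zfp318, Zfp423, Zfp516 and Zfp608, which is 4 of 7 in dKO-N and 4 of 19 in dKO-E. Both comparisons use the same control libraries, and the matching overlap over all genes was not counted. In none of the 3 comparisons were 93 members called. The members not called in dKO-E ranged from -0.49 to 0.63 in log2 fold change, with a median SE of 0.15. Of the 19 calls in dKO-E, 6 held whichever library was left out, those of Zfp608, Zfp423, Zfp40, Zfp46, Zfp605 and Zfp81. Of these only Zfp608 and Zfp423 passed under all 21 alternatives. Without control 1 and 3 the adjusted p was 0.0954 for Zfp40, 0.130 for Zfp605 and 0.0650 for Zfp81, and with sex as a covariate it was 0.0942 for Zfp40 and 0.127 for Zfp605. Zfp46 was lost after thinning. Beside these differences stand those of the cell type markers. Of 10 excitatory neuron markers 2 fell and 1 rose in dKO-N, and 5 fell and 1 rose in dKO-E. Of 12 mature neuron markers 9 fell in each knockout, with sums of 4457 to 5177 CPM in control, 3569 to 4053 in dKO-N and 3398 to 3813 in dKO-E. Of 10 radial glia markers tested 5 rose in each knockout, and of 7 intermediate progenitor markers 4 rose in dKO-N and 3 in dKO-E. Oligodendrocyte lineage markers summed to 269 to 344 CPM in control, 182 to 389 in dKO-N and 413 to 535 in dKO-E. The higher sum in dKO-E does not describe most of that list. Of its 6 genes tested there against control, 1 rose and 2 fell, and 5 had a negative fold change (median log2 fold change -0.56). The part of any of these in the members' differences was not tested.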

How the data were processed

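The authors deposited 1 file per library, with whole-number counts for each gene and no normalization. HTSeq, STAR and UMI-tools are named, with the mm10 build, per the submitters' processing notes. Their versions, the annotation and the counting options are not given in the sources, so strand use and intron counting are unknown and overlapping genes or close copies are uncertain. Beside 51912 genes, every file has 5 summary lines, which were left out: reads without a feature made up 6.65% to 8.94%, ambiguous reads 2.0% to 2.2% and multiply mapped reads 2.3% to 4.16%, leaving 85.2% to 88.9% in genes. Identifiers were matched to GENCODE M21 for symbols and positions (51633 matched, 99.5%).

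All genes were tested with edgeR 4.0.16 in R 4.3.3 (filterByExpr with a minimum count of 10, TMM, robust quasi-likelihood fit of all 12 libraries with group as the only term, 9 residual degrees of freedom, common biological coefficient of variation 10.6%). P-values were adjusted over 11076 genes by the Benjamini-Hochberg method, with a threshold of 0.05. CPM values are TMM-scaled and errors are SD over 4 libraries or the SE of the log2 fold change. DESeq2 1.42.0 was an alternative. The fit was also run on simulated data, from which no result is used here. Library pairs within a group differed beyond sampling noise (a chi-square of 1.56 to 5.45 for each degree of freedom), and each counts as 1 sample. Same-numbered libraries did not deviate together, as given in the closing section.

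The members, the gene lists (KRAB silencing machinery, H3K9 enzymes and readers, H3.3 chaperones, imprinted genes, 3 lists of members by role and 13 of cell type markers) and the tests were chosen with earlier results of these data known. Named members are those called with the largest changes (12 each way against control, 6 each way between the knockouts), the 10 with the highest level and the 10 highest per kb, all members of a cluster with at least 3, the 3 on each side of the count limit, and the lists. Classes come from the longest open reading frame of GENCODE transcripts, as no protein table was used. The KRAB pattern was shifted by 1 position after its first form matched no protein. Sex entered as an alternative, with over 100 counts summed over 4 Y-linked genes (Ddx3y, Uty, Kdm5d and Eif2s3y) marking males. Stray counts of up to 3 in these genes occurred in the other libraries. Over all genes of the Y chromosome every library held at least 135 counts, and that sum was not used. Python 3.11.15 and pandas 2.3.3 made the tables.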

Additional observations from a re-analysis of the deposited data

Results flagged for a closer look

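Among 198 groups of 4 libraries, for the named members, 14 had an end library whose gap to its nearest neighbour passed Dixon's 95% limit, where chance gives about 1 in 20. In dKO-E the library dKO-E 1 was highest for Zfp536 (287 CPM) and Zfp609 (253 CPM) and lowest for Zfp654 (79.7 CPM), dKO-E 2 was highest for Zfp445 (130 CPM), and dKO-E 4 was lowest for Zfp341 (14.5 CPM). In dKO-N, dKO-N 4 was lowest for Zfp697 (124 CPM) and highest for Zfp26 (49.3 CPM), dKO-N 3 was highest for Zfp423 (114 CPM) and lowest for Zfp763 (12.4 CPM), and dKO-N 2 was lowest for Zfp704 (404 CPM) and highest for Zfp746 (46.6 CPM). In control, control 4 was highest for Zfp46 (91.4 CPM) and lowest for Zfp146 (20.7 CPM), and control 1 was highest for Zfp975 (28.6 CPM).

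The knockouts differed from each other for 12 named members by edgeR's test of that difference. Zfp423 (log2 fold change 0.44) and Zfp655 (0.62) were higher in dKO-E than in dKO-N. Lower in dKO-E were Zfp975 (-1.15), Zfp933 (-0.81), Zfp672 (-0.79), Zfp60 (-0.78), Zfp558 (-0.56), Zfp2 (-0.55), Zfp638 (-0.53), Zfp46 (-0.53), Zfp266 (-0.39) and Zfp148 (-0.32). Of these 12, Zfp975 and Zfp638 passed whichever library was left out.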

How the results depend on the processing

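No member's sign was reversed with its call under any alternative, but the counts of called members moved. For dKO-N against control (7 members) library totals gave 12, thinning to 722080 counts gave 3, leaving out control 1 and 3 gave 3, and leaving out single libraries gave 4 to 10. For dKO-E against control (19) DESeq2 gave 12, sex as a covariate 7, thinning 3 and leaving out control 1 and 3 gave 5, and single leave-outs gave 11 to 23, lowest without control 2, dKO-E 3 or dKO-E 4. For dKO-E against dKO-N (14) library totals, no filter on low counts and DESeq2 gave 9 each, fitting only the 2 groups compared and leaving out control 1 and 3 gave 8 each, sex gave 3 and thinning 0. Single leave-outs gave 5 to 16, with 8, 9, 6 and 9 without dKO-E 1, 2, 3 and 4 and 5 without dKO-N 4. The 4 Y-linked genes used to mark sex passed 100 counts in dKO-E 3 and 4 alone, so sex and dKO-E cannot be told apart in full. With the replicate block 5, 15 and 8 members passed in the 3 comparisons, but same-numbered libraries did not deviate together (correlations -0.12 to 0.01), so they share only a number. Clusters built from members alone held 25 members in place of 48, and limits of 200 and 1000 kb gave 36 and 51. The cause of these shifts was not tested, beyond fewer libraries or counts in the settings that remove them. Here and above, the share of all genes called under each alternative is not set beside the count of called members. These counts therefore do not show whether members lost more calls than other genes did. With a median SE of 0.15 to 0.17, changes of the size seen in most members could not be called at this depth.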
